A study of Rattus norvegicus with 120 samples.

Results

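Aplf, Frmd4b and Ccdc77 are 3 genes of rat chromosome 4, followed here through their messenger RNA in whole eyes. They were chosen by symbol, from genes whose levels had fallen into steps across the animals of this cross, and every probe set that the array's annotation assigns to one of these symbols alone was kept: 5 probe sets of 31099 on the array, 1 for Aplf, 2 for Frmd4b and 2 for Ccdc77. All 5 passed the filter on low values, which kept 23326 probe sets. The animals were 120 male rats of the F2 generation from crossing the inbred rat strains SR/JrHsd and SHRSP, 12 weeks old, with RNA from both eyes of each animal pooled on 1 Affymetrix array. The labels give no treatment, place all animals in 1 group, and genotypes were not used here, so the levels of the genes themselves stand in for the alleles an animal may carry. Sample titles hold an S code (10 codes, 11 to 13 arrays each), which goes with dates in the titles and is treated as a processing batch, and an L code (22 codes, 2 to 11 arrays each) of unstated meaning. Unless stated otherwise, values are log2 levels with the mean of each S code removed.

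In an F2 cross every animal draws 2 copies of each autosome, which may have recombined. An autosomal locus that differs between the parental strains thus gives 3 genotypes at 1:2:1. Genes close together on a chromosome are inherited together unless a crossover falls between them. Frmd4b encodes a FERM domain scaffold that binds a cytohesin exchange factor of ARF GTPases, and in mice an allele of it suppresses the photoreceptor dysplasia of Nr2e3 mutants. Aplf encodes a poly(ADP-ribose) binding protein and histone chaperone that assists the end-joining repair of DNA breaks. Ccdc77 encodes a coiled-coil protein that has been found at centrosomes. In the gene order of the GRCr8 assembly, Aplf comes first, Frmd4b follows 177 genes later and Ccdc77 another 294 genes later. Gene order does not give physical distance, and the deposited values carry no coordinates. The promoter windows below give positions in the assembly, but the recombination fractions were not compared with physical distance.

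The promoters of the 3 genes are shown because the levels of the genes were related across animals, with Aplf inverse to the others. The promoters also differ in composition, and their part in the levels was not tested. The sequences are those of RefSeq (build GRCr8, minus strand for all 3), 250 bases before to 50 bases after the start of a transcript, and capitals mark matches to CCAAT or to the GC box GGGCGG on either strand, where neighbouring matches can overlap.
Aplf (chr4:121679883-121680182): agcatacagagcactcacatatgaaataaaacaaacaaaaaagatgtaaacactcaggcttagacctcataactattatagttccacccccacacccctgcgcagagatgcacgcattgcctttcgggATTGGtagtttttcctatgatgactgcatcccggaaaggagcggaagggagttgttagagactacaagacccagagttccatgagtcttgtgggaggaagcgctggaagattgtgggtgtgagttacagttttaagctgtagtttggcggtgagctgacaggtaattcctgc
Frmd4b (chr4:131640132-131640431): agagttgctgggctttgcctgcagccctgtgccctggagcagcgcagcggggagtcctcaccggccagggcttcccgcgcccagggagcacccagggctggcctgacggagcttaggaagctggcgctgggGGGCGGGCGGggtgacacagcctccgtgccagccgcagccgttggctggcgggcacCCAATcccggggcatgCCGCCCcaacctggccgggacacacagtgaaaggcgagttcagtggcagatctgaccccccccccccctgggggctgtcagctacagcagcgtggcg
Ccdc77 (chr4:155228895-155229194): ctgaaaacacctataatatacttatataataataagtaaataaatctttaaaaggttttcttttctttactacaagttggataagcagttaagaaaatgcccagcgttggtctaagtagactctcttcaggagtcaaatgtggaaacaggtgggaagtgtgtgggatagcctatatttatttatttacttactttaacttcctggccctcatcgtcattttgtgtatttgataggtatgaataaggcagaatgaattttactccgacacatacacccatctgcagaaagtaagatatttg
The Frmd4b window was 71.7% G and C with 19 CpG, the Aplf window 46.3% with 7 CpG and the Ccdc77 window 33.7% with 3 CpG, against medians of 51.7% and 7 over 33469 promoters of the same length. CCAAT was found once each in the Aplf and Frmd4b windows (37.5% of all promoters hold it), GGGCGG was found 3 times in the Frmd4b window alone (33.1% of all), and TATAAA in none of them (14.2% of all). For Frmd4b and Ccdc77 the transcript start used lies inside the annotated span of the gene, so other starts of the same gene were not shown.

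All 3 genes varied widely between animals, Frmd4b most. The Frmd4b probe set of larger spread (1384681_at) had a lowest value of 4.05, a median of 8.08 and a highest of 10.01, a 62-fold range, with a mean of 7.61 ± 1.42 (SD, n = 120). Its range starts under 4.28, the filter on low values, where signal and background are hard to tell apart. Its values were not spread evenly: 25 animals lay at or below 6.34, 95 lay at or above 6.74, and none lay between. Before the S code means were removed, no animal lay between 6.31 and 7.10, and animal 53 was in the lower body at 6.09. Removal moved animal 53 to 6.74, the lower edge of the upper body. S code 2, with no animal under 8.08 before removal, was shifted down, animal 2 from 8.27 to 7.15. Aplf (1373994_at) ranged from 6.21 through a median of 7.54 to 8.57, with a mean of 7.42 ± 0.57 (SD, n = 120). A lower body of 39 animals ended at 7.22 and the other 81 began at 7.33. Ccdc77 (1393842_at) ranged from 4.24 through 5.70 to 6.84, with a mean of 5.61 ± 0.62 (SD, n = 120) and a smaller gap, between 5.004 and 5.084, above its lowest 28 animals. Before the S code means were removed, its gap was wider, from 4.95 to 5.27. By SD these probe sets ranked 6th (Frmd4b), 226th (Ccdc77) and 284th (Aplf) of the 23326, and since the genes were chosen on these values the ranks are a description. In whole-eye RNA, fewer cells of a type and less RNA per cell cannot be told apart.

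**Figure D1:**
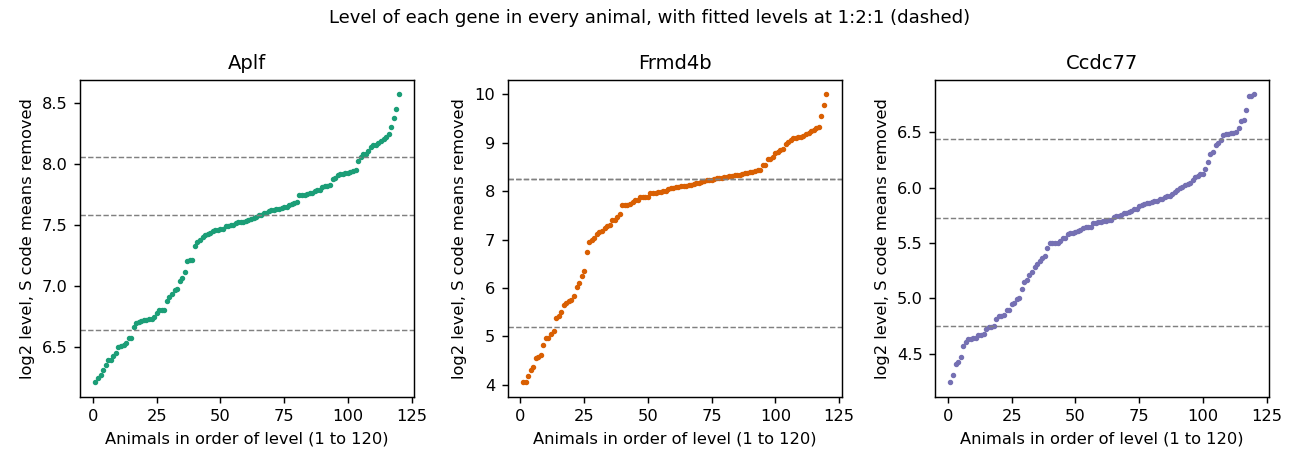
Log2 level of Aplf, Frmd4b and Ccdc77 (vertical axes, S code means removed) in each of 120 animals, placed in order of level (horizontal axes), with dashed lines at the 3 levels fitted at 1:2:1. Frmd4b shows 25 animals below an empty stretch from 6.34 to 6.74 and its middle and upper lines coincide at 8.25, while Aplf and Ccdc77 have 3 separate lines.

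Fitting 3 normal levels at 1:2:1 with a common SD described Aplf by levels at 6.65, 7.59 and 8.06 (SD within a level 0.22), a 2.67-fold difference between the outer levels. Ccdc77 stood at 4.75, 5.72 and 6.44 (SD 0.23), a 3.21-fold difference, and its second probe set (1390284_at) at 5.66, 6.36 and 6.88 (SD 0.19), a 2.33-fold difference. On the linear scale the middle level lay 55.1% of the way from the lower to the upper level for Aplf, 43.3% for Ccdc77 and 47.5% for its second probe set. For Frmd4b the lower level was 5.19 and both other levels 8.25 (SD 0.67), an 8.34-fold step, and the Bayesian information criterion (BIC, lower for a better description) was 377.2 with 2 levels at 1:3 against 382.0 with 3 at 1:2:1. For Ccdc77 the BIC was lower with 3 levels (218.2 against 230.2), and for Aplf by little (190.2 against 191.5). The animals nearest the lower, middle and upper level numbered 35, 60 and 25 for Aplf and 31, 69 and 20 for Ccdc77. When each level was given an SD of its own, Frmd4b also separated into 5.30, 8.02 and 8.78, with 26, 72 and 22 animals, but at a higher BIC (390.1). Without removal of S code means, the 1:2:1 fit had a smaller SD within a level: 0.21 for Aplf, 0.59 for Frmd4b and 0.17 for Ccdc77. Frmd4b then stood at 4.98 for its lower level and 8.33 for both others. These shapes were what the genes were chosen on, and no test is attached to them.

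The probe sets of 1 gene did not behave alike. Both probe sets of Ccdc77 told the animals apart in the same way: the second ranged from 5.15 through 6.35 to 7.19 and shared 86.9% of its variance with the first, between 78.7% and 92.9% within each of the 10 S codes. The second Frmd4b probe set (1390464_at) ranged only from 5.04 through 5.59 to 6.0 (SD 0.16) and shared 15.7% of its variance with the first. It rose by 0.04 log2 units per log2 unit of the first, with a positive slope within all 10 S codes. What part of the transcript either Frmd4b probe set reads, and whether the parental strains differ in sequence there, was not tested. The large range of Frmd4b therefore rests on 1 of its 2 probe sets, and that of Aplf on its single probe set.

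**Figure D2:**
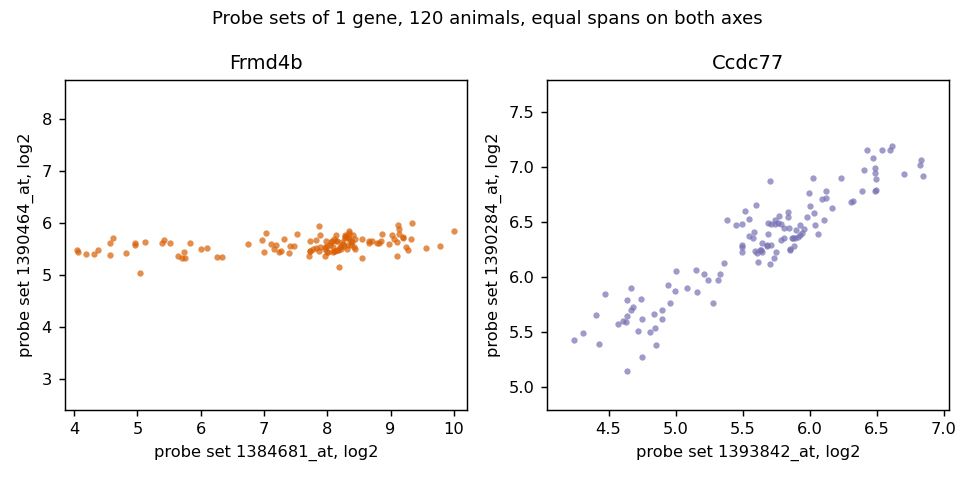
Log2 levels of the second probe set against the first for Frmd4b (left) and Ccdc77 (right), 1 point for each of 120 animals, with axes of equal span in each panel. The Ccdc77 points follow a rising line (86.9% shared variance), while the second Frmd4b probe set stays between 5.04 and 6.0 over the whole range of the first.

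Unlike most of the array, the stepped probe sets did not follow the processing batch. In limma's F test of differences between the 10 S codes (moderated, Benjamini-Hochberg adjusted at 0.05), 92.1% of the tested probe sets passed, but Aplf (adjusted p = 0.501), Frmd4b (adjusted p = 0.128), Ccdc77 (adjusted p = 0.243) and its second probe set (adjusted p = 0.238) did not pass. The second Frmd4b probe set passed (adjusted p = 1.94e-07), with 36.03% of its variance between S codes against 11.2% for the first. None of the 5 passed the same limma test for the 22 L codes (adjusted p between 0.276 and 0.608, S code as covariate), which 4.58% of all probe sets passed. The L codes held 23.01% of the remaining variance of Aplf, 23.6% of that of Frmd4b and 19.2% of that of Ccdc77. A p above the threshold does not show that the codes had no part in these levels. Array medians lay between 5.78 and 5.96, and the array of animal 63, the lowest of all for Aplf, was also the least like the others (median correlation 0.937, against 0.989 for a typical array). The eye markers Sag (rods), Cryaa (lens), Krt12 (cornea) and Rpe65 (retinal pigment epithelium) were at or above 8.58 on all arrays.

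The levels of the 3 genes went together, with Aplf running against the other pair. Animals with high Frmd4b had low Aplf and high Ccdc77: the slope was -1.78 log2 units of Frmd4b per log2 unit of Aplf, 0.29 of Ccdc77 per unit of Frmd4b and -0.65 of Ccdc77 per unit of Aplf. Each slope had the same sign within all 10 S codes (-2.63 to -0.71, 0.19 to 0.54 and -1.01 to -0.29), and the shared variance was 51.9% for Aplf with Frmd4b, 45.1% for Frmd4b with Ccdc77 and 35.9% for Aplf with Ccdc77. Within S codes the shared variance ran from 8.58% to 81.2%, from 12.2% to 87.6% and from 9.48% to 65.4%. Dropping the 2 animals most distant from the first gene's median gave 52.5%, 41.7% and 38.2%. The values of Frmd4b fall into separate bodies, so the relations within each are given further on.

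**Figure D3:**
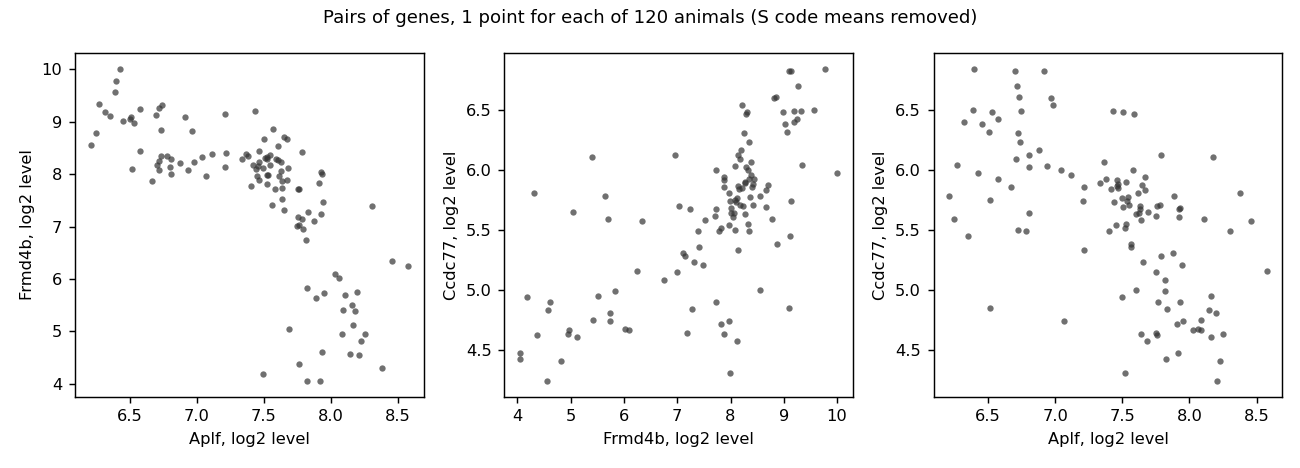
Log2 levels of each pair of genes (S code means removed), 1 point for each of 120 animals. All 25 animals of the lower Frmd4b body have Aplf at 7.49 or above, Ccdc77 increases with Frmd4b, and Ccdc77 decreases with Aplf, with shared variances of 51.9%, 45.1% and 35.9%.

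Linkage was measured with a joint F2 model of each pair, in which the fitted levels stand for genotypes and the recombination fraction (the share of gametes with a crossover between the genes) is estimated by likelihood, and the LOD is the log10 of its likelihood ratio against free recombination at 0.5. Aplf and Frmd4b had a recombination fraction of 0.013 (1-LOD support interval 0.001 to 0.08) and a LOD of 15.5. Frmd4b and Ccdc77 had 0.146 (0.08 to 0.241) with a LOD of 8.37, and Aplf and Ccdc77 had 0.143 (0.087 to 0.218) with a LOD of 12.7. In 100000 permutations of animals within S codes the LOD never exceeded 4.73, 6.14 and 4.995 for the respective pairs, so each permutation p was 1e-05, the smallest possible here, and stayed at 1e-05 when adjusted over the 3 pairs (Benjamini-Hochberg). In the fitted model, high levels of Frmd4b and Ccdc77 lay in the same phase, and high levels of Aplf in phase with low levels of both. No genotypes were used, so an allele behind any of these levels was not tested. The genes were chosen with earlier results of these data known, so these p-values are not independent evidence.

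The recombination fraction was smallest for Aplf and Frmd4b, the pair with fewest genes between them, under each alternative that gives one except estimated level proportions, where Aplf and Ccdc77 had the smallest (0.157, LOD 11.5). Adjacent pairs added without interference give 0.155 for the outer pair, which had a measured 0.143, within its support interval. The second Ccdc77 probe set, read in place of the first, gave nearly the same values, 0.147 (LOD 8.46) with Frmd4b and 0.136 (LOD 13.3) with Aplf. Given Frmd4b, Aplf and Ccdc77 still shared 5.07% of their variance, against 28.7% for Aplf and Frmd4b given Ccdc77 and 18.6% for Frmd4b and Ccdc77 given Aplf. The values for Frmd4b depended on how its levels were described. With proportions estimated, the fit placed 2 levels inside its lower body, with shares of 12.5%, 8.91% and 78.6% from low to high. The joint model still took genotypes at 1:2:1, so only the positions and SD of the levels changed in it. The recombination fractions then became 0.291 with Aplf (LOD 6.81) and 0.396 with Ccdc77 (LOD 1.72). With an SD for each level they were 0.005 (LOD 23.3) and 0.115 (LOD 13.965).

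**Figure D4:**
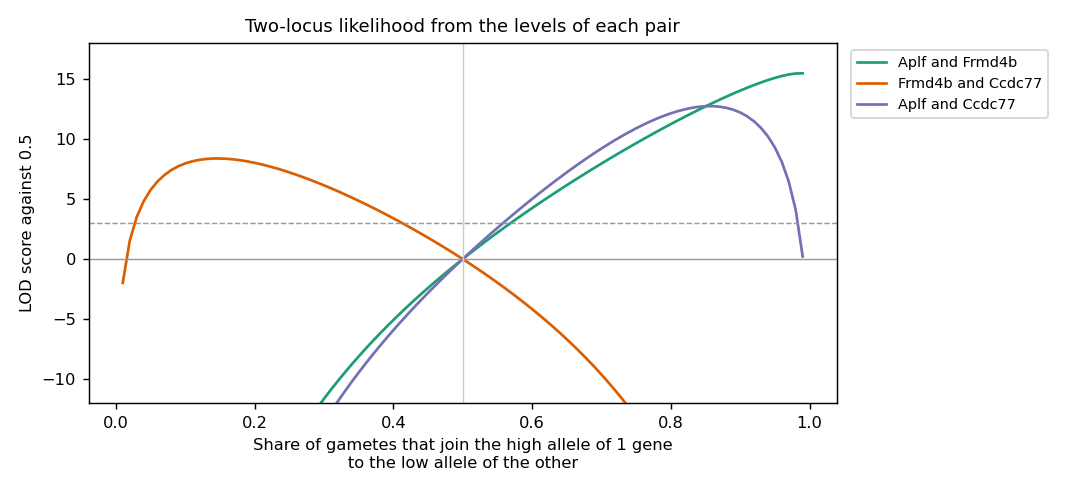
LOD score (vertical axis) against the share of gametes that join the high allele of 1 gene to the low allele of the other (horizontal axis, 0.5 for free recombination), for each pair of genes. Frmd4b and Ccdc77 peak at 0.146 with a LOD of 8.37, and the pairs with Aplf peak to the right of 0.5, where the high level of 1 gene goes with the low level of the other, with LODs of 15.5 and 12.7. Values under the lower end of the axis are not drawn, and the dashed line marks a LOD of 3.

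The upper body of Frmd4b values, which the fit reads as a single level, was not uniform with respect to its linked genes. Among the 95 animals above the gap, Frmd4b correlated with Aplf at r = -0.700 (rho = -0.699) and with Ccdc77 at r = 0.562 (rho = 0.594), each with a permutation p of 1e-05 within S codes (1e-05 is the smallest possible, 2e-05 after adjustment over 4 relations). Dropping the 2 animals most distant from the Frmd4b median, r was -0.677 and 0.551. Among the 25 animals below the gap the relations did not pass: r was 0.406 with Aplf (permutation p = 0.0516, adjusted 0.0689) and 0.312 with Ccdc77 (permutation p = 0.105, adjusted 0.105). There rho was 0.264 and 0.377 (permutation p = 0.205 and 0.107), and r without the 2 farthest animals 0.192 and 0.228. The difference between the bodies was not tested. The bodies were cut at a gap in the same Frmd4b values that the genes were chosen on. The genes were also chosen with earlier results known, so these p-values are not independent evidence. The bodies are those after removal of S code means, which placed animal 53 in the upper one, and they were not redrawn from the values before removal.

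The levels of other genes of chromosome 4 also went with the 3 genes. Each probe set was regressed on the level of each gene with limma, with the S code as covariate and Benjamini-Hochberg adjustment over all tested probe sets, and 10.6% of the 1012 probe sets of chromosome 4 passed for Aplf, where 2.06% of all probe sets did. For Frmd4b 78 of 1011 passed (7.72%, against 1.08% of all), and for Ccdc77 11.97% of 1011 (against 5.2% of all). These include the probe sets of the other 2 genes. Over all probe sets, 1.71% were higher and 0.347% lower with Aplf, 0.416% and 0.665% with Frmd4b, and 3.01% and 2.18% with Ccdc77. With array medians subtracted, the higher share of the calls went from 38.5% to 56.02% for Frmd4b and from 58% to 42.8% for Ccdc77, and for Aplf from 83.2% to 82.1%. With 1 probe set per gene, 93 genes of chromosome 4 passed for Aplf, 78 of them higher and 15 lower with it (background 2.24% higher and 0.3% lower over all genes). For Frmd4b it was 66, with 20 higher and 46 lower (0.511% and 0.844%), and for Ccdc77 88, with 30 higher and 58 lower (2.82% and 2.68%). Chromosome 4 had the largest share of genes past the threshold in all 3 fits, 13.1%, 9.3% and 12.4%, where the other chromosomes lay between 0.484% and 3.56%, between 0.283% and 1.98%, and between 3.15% and 7.1%.

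The genes that shared most variance with each of the 3 lay both near and far from it. For Ccdc77 the largest shares were Apobec1, the mRNA-editing cytidine deaminase, 46 genes away (0.53 ± 0.03 log2 units per log2 unit of Ccdc77, SE, 67.3% of its variance, limma adjusted p = 4.45e-25), and P3h3, a collagen prolyl hydroxylase (-0.49 ± 0.04, 60.6%, limma adjusted p = 1.10e-20). Apobec1 ranged from 6.77 through 7.98 to 8.63 over the animals and P3h3 from 6.26 through 7.70 to 8.41. Both also went with Frmd4b, but less closely, at 34.4% and 19.5% of their variance, and with Aplf at 27.7% and 19.2%. The endocytic adaptor gene Necap1 (55 genes away) fell with Ccdc77 (43.1%), and the heme-binding gene Hebp1 rose with it (34.4%). Fkbp9, a prolyl isomerase of the endoplasmic reticulum, fell with Ccdc77 from 1090 genes away (29.3%, the most distant of the 5).

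For Aplf the closest was Copg1, a subunit of the COPI vesicle coat, only 13 genes away, which fell by 0.12 ± 0.01 log2 units per unit of Aplf (46.9% of its variance, limma adjusted p = 2.02e-12). Its range was narrow, from 8.57 through 8.90 to 9.12. The second Copg1 probe set went the other way, rising by 0.12 per unit (32.4%, limma adjusted p = 1.26e-07), so the direction for Copg1 is not settled. The endosomal sorting nexin gene Snx10 rose with Aplf (0.55 ± 0.06, 46.3%), and so did the replicative helicase gene Mcm2 (42.7%) and Tmem176a (39.2%), while the zinc finger gene Repin1 fell (36.7%). Of these, Mcm2 lies 37 genes from Aplf, and Snx10, Tmem176a and Repin1 lie 714 to 782 genes away. Another Snx10 probe set shared 8.88% and did not pass (limma adjusted p = 0.0561). Another Repin1 probe set also fell with Aplf and passed (33.1%), and a further one did not pass (4.03%, limma adjusted p = 0.195).

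For Frmd4b the closest genes other than Aplf and Ccdc77 were again Copg1 (43.8% of its variance), then Fkbp9 (36.5%), the chromatin remodeller gene Smarcad1 (34.6%), Apobec1 (34.4%) and Repin1 (33.9%). Fkbp9 and Smarcad1 fell with Frmd4b, and the first Copg1 probe set, Apobec1 and Repin1 rose. However, a second Smarcad1 probe set did not pass (1.94%) and a second Copg1 probe set fell. Another Repin1 probe set also rose and passed (20.2%), and a further one did not pass (5.15%, limma adjusted p = 0.170). Copg1 lies 164 genes from Frmd4b and the others 340 to 959 genes away. Of the named genes of chromosome 4, Copg1, Fkbp9, Apobec1 and Repin1 were thus each among the closest of 2 of the 3 genes. Among the 20 probe sets sharing most variance with Aplf, Frmd4b and Ccdc77, 9, 7 and 5 had no gene symbol in the annotation.

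**Figure D5:**
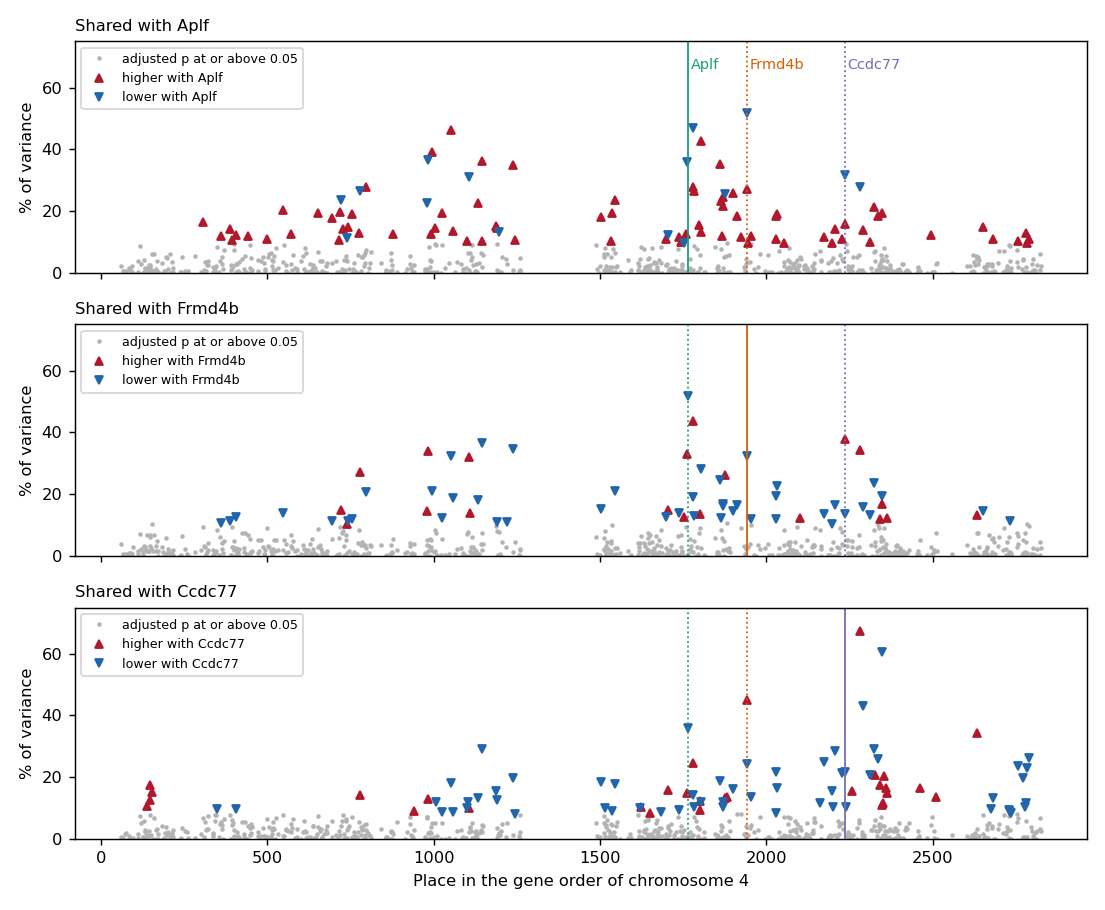
Share of the variance of each measured gene of chromosome 4 (vertical axes, percent, S code as covariate) that went with the level of Aplf, Frmd4b or Ccdc77, by place in the gene order (horizontal axis). Triangles mark genes past an adjusted p of 0.05 and point up where the gene was higher with the named one, and vertical lines mark the places of the 3 genes, solid for the named one. The largest shares for Ccdc77 lie beyond it, with Apobec1 at 67.3% and P3h3 at 60.6%, and the stretch without points holds no measured gene.

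Immediate neighbours were mixed. Of the 20 genes on either side of Aplf, 18 were measured and 6 passed, where 2.54% of all genes passed with Aplf. After Copg1 these were Gkn1 (gastrokine, lower with Aplf, 35.9%), Hmces (a sensor of abasic DNA sites, higher, 27.9%), Rpn1 (an oligosaccharyltransferase subunit, higher, 26.6%), Antxr1 (a matrix receptor, higher, 12.4%) and Aak1 (lower, 9.6%). Prokr1 and Arhgap25, the measured genes closest to Aplf, shared 0.109% and 0.562% of their variance with it and did not pass. Around Frmd4b 2 of 11 measured genes passed (1.35% of all genes), both lower with it: Lmod3, a leiomodin of muscle sarcomeres and the gene next to Frmd4b (32.4%, limma adjusted p = 5.35e-08), and the cap-binding gene Eif4e3 (11.955%). A second Eif4e3 probe set had a slope of the other sign and did not pass (slope 0.02, limma adjusted p = 0.504), and the first did not pass without the S code covariate, with the L code or 5 components as covariates, or without S code 5, 6, 7 or 8 (limma adjusted p between 0.0543 and 0.329). Gkn1 (mean 4.53, lowest 3.94) and Lmod3 (mean 4.80, lowest 4.24) were read from probe sets close to the filter of 4.28. The melanocyte and pigment epithelium factor Mitf, 4 genes from Frmd4b, shared 2.86% and did not pass. Around Ccdc77 4 of 16 passed (5.49% of all genes), namely the histone demethylase gene Kdm5a (lower with Ccdc77, 21.5%), the kinase gene Wnk1 (lower, 21.5%), the GABA transporter gene Slc6a13 (higher, 15.4%) and the interleukin receptor gene Il17ra (lower, 10.2%). With 5 components as covariates Slc6a13 (limma adjusted p = 0.340) and Il17ra (limma adjusted p = 0.0959) did not pass, and Antxr1 did not pass with Aplf without S code 5 (limma adjusted p = 0.130). Kdm5a overlaps Ccdc77 in the assembly, and 2 other Kdm5a probe sets shared 1.25% and 0.642% and did not pass. Another Wnk1 probe set was also lower with Ccdc77 and passed (28.9%), and a further one did not pass (0.363%, limma adjusted p = 0.7115).

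The share of genes past the threshold varied with the number of genes in between, without falling at each step for any of the 3. Within 20 genes it was 18.2% for Frmd4b, 25% for Ccdc77 and 33.3% for Aplf, over fewer than 20 measured genes each. For Frmd4b 10 of 36 genes passed at 21 to 100 genes away (27.8%), 17 of 149 from there to 300 (11.4%), 11 of 153 from there to 700 (7.19%) and 26 of 361 beyond (7.2%), against 1.35% of all genes. For Ccdc77 the shares were 23.9%, 12.9%, 16.8% and 7.27%, against 5.49% of all genes, and for Aplf 16.98%, 17.6%, 11.6% and 10.9%, against 2.54%. The differences between these shares were not tested.

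Genes of other chromosomes went with the 3 genes more weakly, at no more than 25.4% of their variance (1 probe set per gene). For Ccdc77 these were Uchl1, a neuronal ubiquitin hydrolase (0.10 ± 0.02 log2 units per unit, SE, 25.4%, limma adjusted p = 2.13e-05), the glutaredoxin gene Glrx (lower, 24.01%), the biotinidase gene Btd (19.8%), the tubulin polyglutamylase gene Tpgs1 (19.1%) and the phosphatidylinositol transfer gene Pitpnm1 (18.8%). Uchl1 (18.999%), Glrx (lower, 18.7%) and Pitpnm1 (17.8%) also led for Frmd4b, with Crtac1 (18.7%) and Pcp2, a protein of rod bipolar cells (17.95%). For Aplf these were Nipsnap3b (17.5%), the adhesion receptor gene Adgrg6 (17.4%), the chloride channel gene Ano1 (17.1%), Map3k20 (16.1%) and Ets1 (15.6%), all higher with it. Of these, Ano1, Map3k20 and Ets1 did not pass with the L code (limma adjusted p = 0.0867, 0.187 and 0.146) or 5 components (0.0605, 0.106 and 0.101) as covariates, nor did Ets1 without the rescanned arrays (0.0754), Map3k20 without S code 3 (0.0545) or Adgrg6 without S code 5 (0.0676). With Ccdc77, Tpgs1 and Pitpnm1 did not pass with 5 components (limma adjusted p = 0.113 and 0.179), nor Btd and Pitpnm1 without the S code covariate (0.069 and 0.255). With Frmd4b, Uchl1, Glrx, Pcp2 and Pitpnm1 did not pass without S code 6 (limma adjusted p between 0.0531 and 0.298), nor Crtac1 and Pitpnm1 without the S code covariate (0.566 and 0.683). Second probe sets of Glrx, Btd, Crtac1 and Map3k20 did not pass.

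Counts outside chromosome 4 changed most with the arrays and covariates used. For Aplf 374 probe sets outside chromosome 4 passed, but 43 without the 3 rescanned arrays, which include that of animal 63, and 48 without animals 63 and 15, while on chromosome 4 the share went from 10.6% to 6.32% and 7.51%. For Ccdc77 1091 passed outside chromosome 4, and 44 with 5 principal components as covariates, where 72 of chromosome 4 did. The level of Ccdc77 shared 8.39% of its variance with the 3' to 5' difference of actin, a measure of RNA integrity and labelling, and 7.41% with the first component, against 3.49% and 1.71% for Frmd4b and 1.6% and 2.45% for Aplf. Without animals 63 and 15 Ccdc77 had 2235 outside and 188 on chromosome 4. For Frmd4b 174 passed outside chromosome 4, 27 without the S code covariate, 50 with the L code as covariate and 129 with the 5 components.

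Leaving out each S code in turn gave for chromosome 4 between 6.225% and 11.76% of probe sets for Aplf (63 probe sets without S code 3), 45 to 93 for Frmd4b (45 without S code 6) and 61 to 141 for Ccdc77 (61 without S code 6 and 80 without S code 1). Outside chromosome 4 it gave 0.211% to 2.39%, 0.112% to 1.55% and 0.489% to 7.29% of probe sets, and the count moved by over 1.5 times without S codes 1, 3, 5, 6 or 7 for Aplf, 3, 5, 6 or 8 for Frmd4b, and 1, 3, 6, 7 or 8 for Ccdc77.

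Few genes from lists of known partners and pathways passed. Among the list of polarity and ARF partners, 17 of 22 genes were measured and none passed with Frmd4b by limma (median share of variance 1.21%, against 1.25% over all genes), the largest being the polarity gene Crb2 at 9.77%. Of the 19 genes of DNA end joining and the poly(ADP-ribose) response 17 were measured and none passed with Aplf (median 1.26%, against 1.4% over all genes), the largest being Tdp1 at 6.6%. Of 19 centrosome genes 15 were measured and 1, Cep135, was lower with Ccdc77 (8.94%, limma adjusted p = 0.038), with a median of 2.16% against 1.51% over all genes. That is 1 of 15, where 5.49% of all genes passed with Ccdc77 and 2.68% were lower with it. Cep135 did not pass with the first 5 components as covariates (limma adjusted p = 0.407), nor without S codes 1, 3, 5, 6, 8, 9 or 10 (0.0542 to 0.116).

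Few markers of the cell types in the sample passed. Of 42 measured markers from 10 lists, 1 passed with Aplf (Ptprc, the leukocyte antigen CD45, higher, 11.7% of its variance) and 1 with Frmd4b (Myh2, a myosin of skeletal muscle, lower, 11.3%), near the background of 2.54% and 1.35% of genes. With Ccdc77 5 of 42 passed, at 8.25% to 10.3% of their variance: the rod gene Rcvrn and the lens gene Lim2 were higher, and Myh2, the corneal gene Aldh1a3 and the glial transporter gene Slc1a3 were lower, where 5.49% of all genes passed. No cone, pigment epithelium, gland or blood marker passed with any of the 3. The part of these cell types in the levels of the 3 genes was not tested.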

How the data were processed

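Values of 120 eye RNA samples, 1 Affymetrix array each, were read from the deposited table. The log2 values in it were deposited by the authors and come from RMA (robust multi-array averaging), per the submitters' processing notes, with the version not given in the sources used here. RMA makes the arrays alike in distribution, which can mask shifts common to most genes, and a sequence difference between strains under a probe would change its signal. The build of the array annotation is not given in the sources used here.

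Probe sets were named through the platform annotation and a RefSeq table (GRCr8), used for names and gene order: 20826 had 1 symbol, 436 several and 9780 none. Probe sets with a mean of at least 4.28 (25th percentile of all values) were tested. Associations and code effects were tested with limma 3.58.1 (R 4.3.3), Benjamini-Hochberg adjusted at 0.05. Levels were fitted by maximum likelihood in Python 3.11.15. The number of arrays limits the precision, and with 1 array for each animal the p-values cover animal and array error combined.

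The genes, lists and tests were chosen with earlier results of these data known. For each member the probe set of largest SD was used, and other genes were read from that of highest mean. Named genes were, for each member, the 5 closest of chromosome 4 other than members, the 5 closest of other chromosomes, up to 5 neighbours past the threshold within 20 genes, and list genes past it. Aak1, the neighbours and list genes that did not pass, and the second and further probe sets were named after their values were seen. Both methods were tested on simulated data. For associations, effects were planted on the Frmd4b level: 51% of those at 10% of variance and 99% of those at 25% were recovered. The noise was drawn independently for each probe set, so variation shared between probe sets was not simulated. For linkage only Aplf with Ccdc77 was simulated, where planted fractions of 0.1, 0.2 and 0.3 gave means of 0.106, 0.201 and 0.301. Linkage with the merged levels of Frmd4b was not simulated.

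Alternatives were no S code term, no filter, rescanned arrays left out, array medians subtracted, an L code term, 5 principal components, a stricter threshold, each S code left out, another probe set (for linkage, that of Ccdc77 only), estimated proportions and Spearman rho. Leaving out animals 63 and 15, and an SD for each level, were chosen after seeing the data.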

Additional observations from a re-analysis of the deposited data

How the results depend on the processing

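Linkage kept its orientation and passed the threshold for all 3 pairs under each alternative run, with LODs of 12.7 to 16.02 (Aplf and Frmd4b), 6.33 to 9.88 (Frmd4b and Ccdc77) and 10.1 to 13.3 (Aplf and Ccdc77) when an S code was left out, and with Spearman rho of -0.807, 0.686 and -0.638. It was not run with the second Frmd4b probe set. That probe set shared 7.40% of its variance with Aplf and 4.54% with Ccdc77, with the pooled sign of the slope in 8 and 6 of the 10 S codes. The S code and L code tests of the 3 main probe sets stayed above the threshold under each alternative run. The span between outer levels was 1.42 for Aplf and 1.68 for Ccdc77, and 1.18 and 1.35 with L code effects also removed. Leaving out an S code gave spans of 1.36 to 1.49 (Aplf), 2.95 to 3.17 (Frmd4b) and 1.60 to 1.78 (Ccdc77).

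The share of probe sets associated moved most. For Aplf, Frmd4b and Ccdc77 it was 2.06%, 1.08% and 5.2%, with the L code as covariate 0.476%, 0.394% and 3.12%, at an adjusted p under 0.01 0.514%, 0.356% and 0.772%, and with an S code left out 0.472% to 2.80%, 0.300% to 1.89% and 0.729% to 7.58%. Without the S code covariate it was 0.274% for Frmd4b and 0.617% for Ccdc77, and with 5 principal components 0.780% for Aplf and 0.497% for Ccdc77. It was 0.459% for Aplf without the rescanned arrays, and 0.532% for Aplf and 10.4% for Ccdc77 without animals 63 and 15. The other probe set gave 13.8% for Frmd4b and 0.767% for Ccdc77. The cause of these shifts was not tested. With the other Frmd4b probe set the slope turned to 0.0359 for Smarcad1, -0.00859 for Uchl1, -0.0183 for Pitpnm1 and 0.0714 for Eif4e3, with limma adjusted p between 0.659 and 0.958. Copg1, Fkbp9, Apobec1, Lmod3, Glrx, Crtac1 and Pcp2 kept their direction with it but did not pass (limma adjusted p between 0.0552 and 0.983). Of the genes named for Frmd4b, only Repin1 passed with it (limma adjusted p = 0.0282). Over all alternatives for the named genes, 698 values kept direction and call, 63 lost the call and 4 reversed.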
